A study of Mus musculus with 2 samples.

Results

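The SOX and POU transcription factors are 2 families of DNA-binding proteins of which several members mark neural stem cells. On Agilent mouse expression arrays, 34 genes with 64 probes belonged to them, of 37008 gene names and 56605 probes in all. Members were the non-control probes that both scanner files name Sox followed by a number, or Pou, a digit, f and a digit; Sry was left out. They comprised 19 SOX genes with 35 probes and 15 POU genes with 29 probes. The study compared 2 samples with 1 array each: neurospheres, which are floating aggregates grown from neural stem and progenitor cells, and cells of the VZ/SVZ, the ventricular and subventricular zone that lines the lateral ventricles. Both came from brain of C57BL/6 mice aged 6 months and carry the label Ecrg4hetero beta-gal positive, so a heterozygous Ecrg4 allele and beta-galactosidase positivity are common to both and no other genotype enters the comparison. Ecrg4 encodes a secreted peptide precursor. The labels give 1 growth protocol for both samples, DMEM/F12 with bFGF, EGF and heparin, and do not say how many animals gave each RNA, how long the cells were cultured or how positive cells were separated. With 1 array per group there is no replicate check, no test was made, and the errors given below are the scanner software's technical errors only.

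SOX proteins bind the minor groove of DNA through an HMG box and bend it. POU proteins bind through 2 linked parts, the POU-specific domain and the POU homeodomain, and the octamer is the site for which many of them are named. SOX proteins often act beside a POU partner on neighbouring sites: SOX2 with OCT4 (Pou5f1) in pluripotent cells, and SOX2 with class III POU proteins in neural progenitors. In the adult VZ/SVZ, SOX2 and SOX9 are known from stem cells and astroglia, SOXC proteins from differentiating neurons, SOX10 from the oligodendrocyte lineage and SOXF proteins from vessels.

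What each member's value can mean depends on the probe. The sequences of 4 probes that encode a conserved stretch of the DNA-binding domain are shown first, because that stretch is what makes a gene a family member. Capitals mark the codons of the stretch, found by translating each probe in its 3 forward frames, in the HMG box of Sox17 and Sox8 and in the POU homeodomain of Pou3f4 and Pou5f1.
Sox17: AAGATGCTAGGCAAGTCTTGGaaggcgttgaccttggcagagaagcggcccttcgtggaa
Sox8: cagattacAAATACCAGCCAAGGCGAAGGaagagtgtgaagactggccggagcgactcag
Pou3f4: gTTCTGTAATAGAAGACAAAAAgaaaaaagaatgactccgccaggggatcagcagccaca
Pou5f1: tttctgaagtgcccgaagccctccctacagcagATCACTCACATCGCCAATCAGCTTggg
Each probe was compared only with the other probes of the array. Sequence shared with the transcripts of other genes was thus not examined. Of the 64 probes, 3 had a run of 16 or more bases in common with a probe of another gene. These were 1 probe each of Sox5, with 31 bases in common with a probe named BI648893, Pou4f1, with 19 bases in common with probes of Ahnak and of Tbx22, and Pou6f1, with 16 bases in common with an Ift140 probe. None of these partners is named as a SOX or POU gene. For the genes on which the results turn, the first 30 of the 60 bases of the probe are given here, in lower case because no part of them is singled out.
Sox2: ctggccgagaatccatgtatatatttgaac
Sox11: aaccattctgtattgaaactcttgctataa
Sox7: agtcccggatggatattaataatctcgtga
Pou3f1: ggagcttcccccttcaccatttcttcatct
Pou3f3: atgggaactttctttatggggagcgacctg
Sox5, brightest probe: ggaggaggaggaagaggaggaggaggaaga
Sox5, second probe: ttacaagcaaaaacgtcatcaagaagaaga
The brightest Sox5 probe stands apart, since all 60 of its bases are A or G.

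Values are the processed signal, a background-subtracted Cy3 intensity in the scanner's arbitrary units. For a difference, each array's log2 signals were set relative to its 75th percentile, which lay at 99.4 units (neurosphere) and 106.1 units (VZ/SVZ), and the neurosphere was subtracted from VZ/SVZ. A gene is represented by its brightest probe. A probe that the scanner software did not find well above background on 1 array gives only a bound, written as "at least", and a probe dim on both gives no difference. Signals counted as well above background started at 5.2 units (neurosphere) and 5.93 units (VZ/SVZ), and no probe was saturated. Of the 64 probes, 41 were well above background on both arrays, 5 in VZ/SVZ alone, 3 in the neurosphere alone and 15 in neither. Over all probes of the array, 61.2% reached that mark in the neurosphere sample and 66.2% in the VZ/SVZ sample.

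Sox2, Sox3, Sox6, Sox11, Sox13, Pou3f1, Pou3f3, Pou3f4 and Pou6f1 were at least 2-fold lower in VZ/SVZ, whereas Sox7, Sox15, Sox18 and Pou4f1 were among the genes higher by that margin. Members with a known role in progenitors were not all lower by that margin, since Sox1 (-0.17), Sox4 (0.19) and Pou3f2 (-0.59) stayed within 2-fold. In total, 31 of the 34 genes could be measured. At least 2-fold lower in VZ/SVZ were 9 of them (29.0%), against 11.1% of all 26434 genes measured, and at least 2-fold higher were 5 (16.1%), against 18.7% of all genes. The second share lies near that of all genes and says nothing particular about the family. The other 17 genes differed by less than 2-fold. The median difference over the 31 genes was -0.25 on the log2 scale, against 0.04 over all genes. In RNA from mixed cells, fewer cells of a type and less RNA per cell cannot be told apart. Background correction by normexp with an offset of 50 adds a constant to every signal and so shrinks the differences of dim probes. It left 5.56% of all genes higher and 4.8% lower; of the members it left none higher, and 4 SOX and 3 POU genes lower. Over all genes of the array and not the members, VZ/SVZ was the higher side in 62.8% of those past 2-fold. This share was 53.7% under normexp and 51.9% when arrays were quantile normalized.

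**Figure D1:**
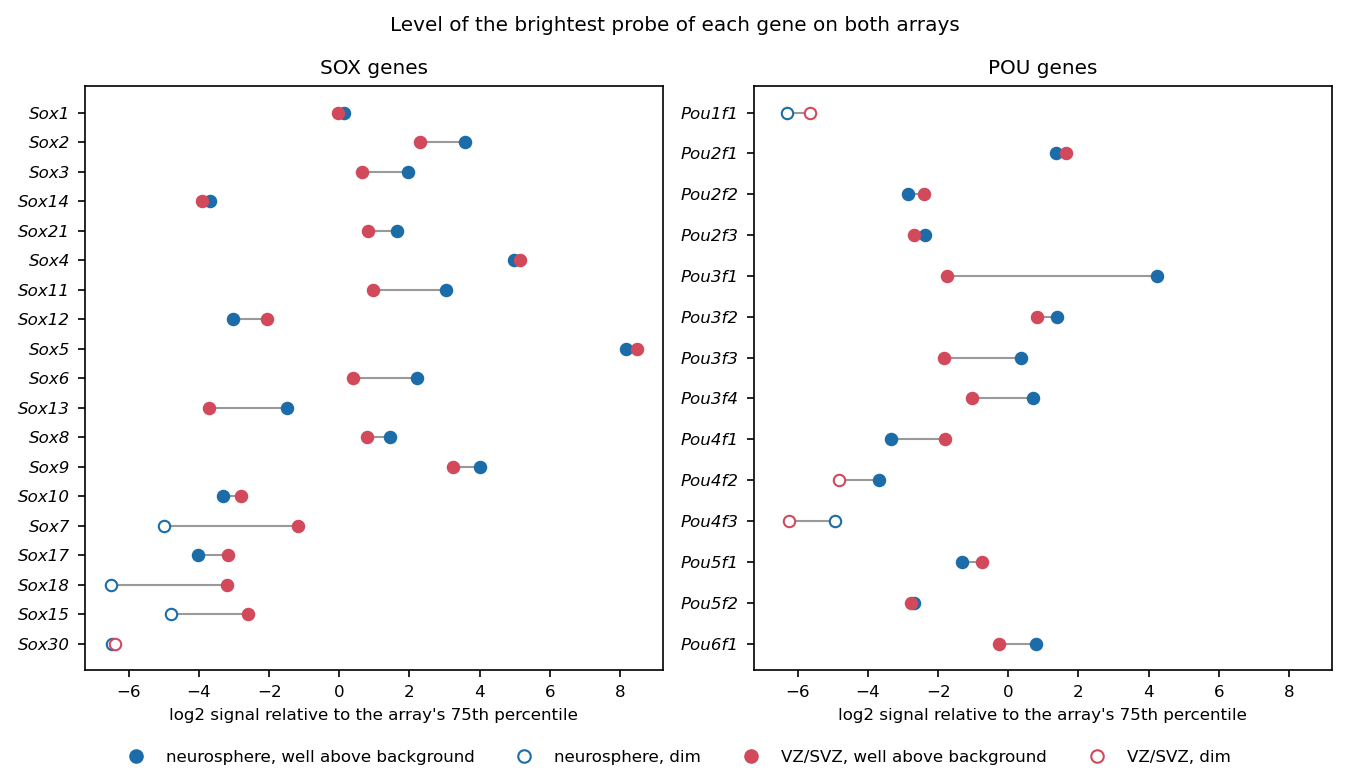
Level of the brightest probe of each gene named in the text on both arrays, as log2 signal relative to the array's 75th percentile, with 1 array per group and no error bars; filled points were well above background and open points were not. The longest line is that of Pou3f1, at 4.25 in the neurosphere and -1.75 in VZ/SVZ, and the open neurosphere points of Sox7, Sox15 and Sox18 lie left of their filled VZ/SVZ points.

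Among the SOX genes, 18 of 19 were measured, and their median was -0.21. In VZ/SVZ, 5 of these (27.8%) were lower by 2-fold or more, against 11.1% of all genes, and 3 (16.7%) higher, against 18.7%. The share of higher SOX genes thus lay near that of all genes. Sox30, a gene known from male germ cells, was dim on both arrays.

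The SOXB1 genes Sox1, Sox2 and Sox3 hold neural progenitors in an undifferentiated state. The Sox2 probe (mm9 chr3:34551260-34551316, forward strand) read 1192.5 units in the neurosphere and 524.67 in VZ/SVZ, a difference of -1.28 ± 0.20 or 2.43-fold lower. The Sox3 probe (mm9 chrX:58144564-58144623) read 385.22 and 168.03 units, 2.45-fold lower in VZ/SVZ. Sox1 (mm9 chr8:12399496-12399555) read 108.65 and 102.95 units, a difference of -0.17 ± 0.21 that lay within its technical error. So 2 of the 3 genes were lower by similar folds and Sox1 was not. The SOXB2 genes Sox21 and Sox14 are known to counteract SOXB1 proteins. Sox21 read 309.28 and 187.96 units, 1.76-fold lower in VZ/SVZ and short of 2-fold, and Sox14 was close to background on both arrays with 7.77 and 7.0 units.

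The SOXC genes Sox4, Sox11 and Sox12 act in neuronal differentiation. They did not move together. The brightest Sox11 probe (mm9 chr12:28019541-28019600) read 827.38 units in the neurosphere and 207.21 in VZ/SVZ, 4.26-fold lower. A second Sox11 probe on the same strand was 3.23-fold lower, from 452.33 to 149.35 units. Another probe named for Sox11, placed on the opposite strand and so not a probe of the Sox11 transcript itself in these coordinates, was 2.28-fold lower. Sox4 read 3124.08 and 3812.2 units with its brightest probe, a difference of 0.19 ± 0.20, and 0.23 with the other. Sox12 read 12.26 and 25.54 units, 1.95-fold higher in VZ/SVZ and just short of 2-fold.

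The SOXD genes Sox5, Sox6 and Sox13 lack a transactivation domain of their own and modulate other SOX proteins in glia and cartilage. Sox6 gave the same direction with all 3 of its measured probes: 463.5 and 140.29 units for the brightest (mm9 chr7:122614402-122614461), 3.53-fold lower in VZ/SVZ, and 2.97-fold and 3.12-fold lower for the others. Sox13 read 35.56 and 8.04 units, 4.72-fold lower (-2.24 ± 0.30), and under normexp its difference was -0.65. For Sox5 the probes disagreed. The A and G repeat probe read 28644.76 and 37882.53 units, a difference of 0.31, while the second probe (mm9 chr6:143781520-143781579) read 147.51 and 72.92 units, 2.16-fold lower in VZ/SVZ. Another was dim in VZ/SVZ and at least 1.69-fold lower there. Probes for other Sox5 transcripts were dim in the neurosphere and at least 3.12-fold and 1.64-fold higher in VZ/SVZ, with 17.29 and 9.12 units there.

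The repeat probe carries the name Sox5, but the files place only 27 of its 60 bases in the genome (mm9 chr6:143776945-143776971). On the array, 9 other probes share a run of at least 20 bases with it, among them probes named for Vash1, Cplx2, Pus7 and Abcf1; these were looked up after the value of the Sox5 probe had been seen. All 9 were well above background on both arrays, with 1395.4 to 32095.4 units in the neurosphere and 1193.0 to 37737.0 in VZ/SVZ, and their differences lay between -0.32 and 0.30. The repeat probe's own difference of 0.31 lay just above that range. Without that probe Sox5 is represented by the second probe, at -1.11, and 6 rather than 5 SOX genes were at least 2-fold lower in VZ/SVZ; this alternative was chosen after seeing the data.

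The SOXE genes Sox8, Sox9 and Sox10 act in astroglia, oligodendrocytes and neural crest. None passed 2-fold with its brightest probe. Sox9 (mm9 chr11:112646642-112646701) read 1618.16 and 1009.68 units, 1.71-fold lower in VZ/SVZ, and its other probe was 2.02-fold lower. Sox8 read 269.22 and 184.2 units with the HMG box probe shown above, 1.56-fold lower, and its other probe was 2.17-fold lower. Both genes were thus lower in VZ/SVZ with each probe, by amounts that straddle 2-fold. Sox10 read 10.04 and 15.29 units, 1.43-fold higher in VZ/SVZ (0.51 ± 0.30).

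The SOXF genes Sox7, Sox17 and Sox18 act in endothelial cells. All 3 were higher in VZ/SVZ, with Sox7 and Sox18 past 2-fold. Sox7 (mm9 chr14:64569419-64569478) was not well above background in the neurosphere at 3.09 units and read 46.77 in VZ/SVZ, at least 8.43-fold higher. Sox18 (mm9 chr2:181404789-181404848) read 1.09 and 11.56 units, at least 2.08-fold higher, with a VZ/SVZ signal not far above the dimmest signals counted. Sox17 read 6.15 and 11.78 units with the HMG box probe shown above, 1.79-fold higher (0.84 ± 0.39), and a probe on the opposite strand at the locus was 1.47-fold higher. Of the 12 endothelial markers, 9 were also higher in VZ/SVZ by 2-fold or more and 2 lower (Flt1 8.77-fold, Ramp2 2.91-fold). The Flt1 probes lay between -3.13 and -0.77. The summed signal of the markers went from 364.2 to 1428.7 units, and their median difference was 2.41. Among the defining markers, Pecam1 was dim in the neurosphere at 2.82 units and read 83.35 in VZ/SVZ. Kdr went the other way, with 9.01 units in the neurosphere and a dim 4.87 in VZ/SVZ, at least 1.62-fold lower. The part of endothelial cells in the SOXF differences was not tested. Under normexp the differences of Sox7, Sox17 and Sox18 were 0.77, 0.09 and 0.16, all below 2-fold. The opposite-strand Sox17 probe was then at -0.004. A further Sox17 probe was dim on both arrays.

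Sox15, the SOXG gene, known from muscle and trophoblast, was dim in the neurosphere at 3.61 units and read 17.43 in VZ/SVZ, at least 3.14-fold higher; under normexp its difference was 0.18. Its closest named neighbour on the array, Mpdu1, whose nearest probe lies 126 bases from the Sox15 probe on the opposite strand, was 1.94-fold lower in VZ/SVZ.

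**Figure D2:**
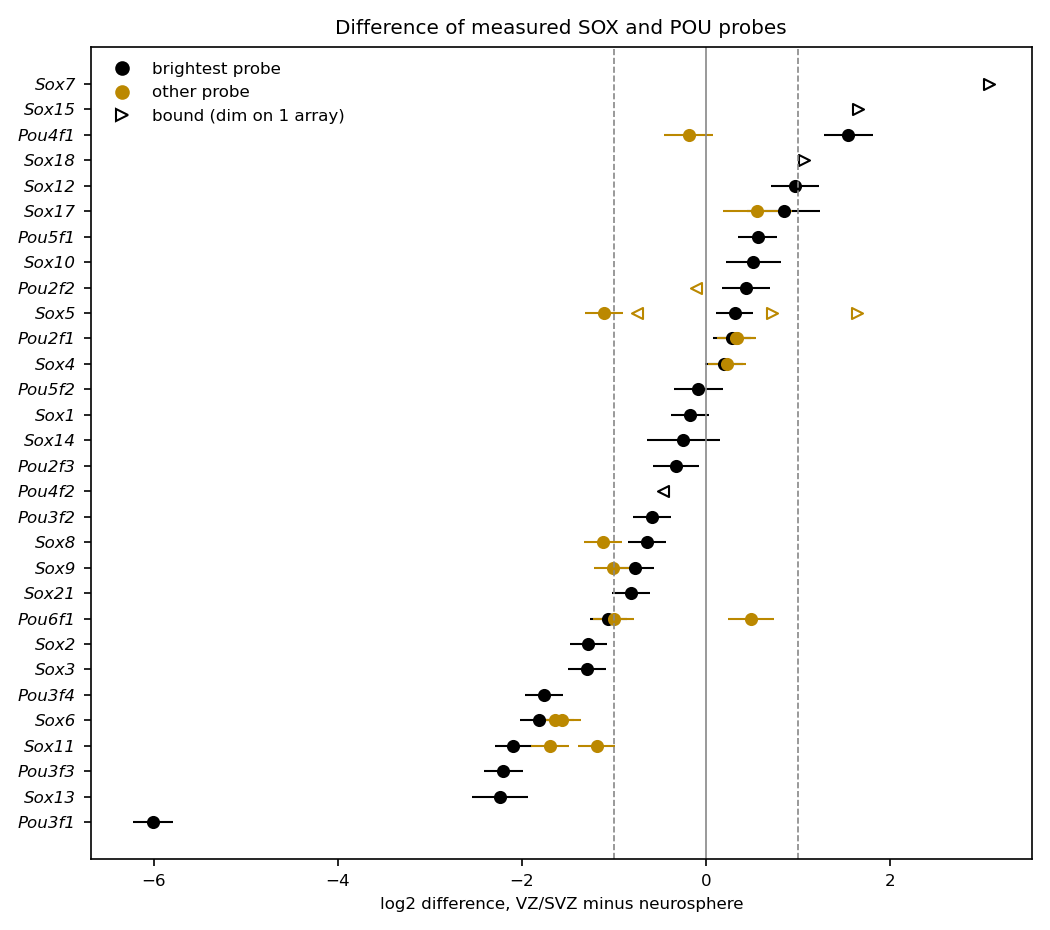
Log2 difference (VZ/SVZ minus neurosphere) of the measured probes, grouped by gene and sorted by gene value; black marks the brightest probe, ochre the other probes, open arrows are bounds, bars are the technical error and dashed lines mark 2-fold. Sox11 and Sox6 probes lie on one side, whereas those of Sox5 spread from -1.11 to 1.64 and those of Pou6f1 from -1.06 to 0.48.

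Among the POU genes, 13 of 15 were measured, and their median was -0.33. In VZ/SVZ, 4 of these (30.8%) were lower by 2-fold or more, against 11.1% of all genes, and 2 (15.4%) higher, against 18.7%. The share of higher POU genes thus also lay near that of all genes. Pou1f1, the pituitary factor, and Pou4f3, a factor of hair cells and sensory neurons, were dim on both arrays.

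Class III, Pou3f1 to Pou3f4, is the class best known from neural progenitors and glia. All 4 genes were lower in VZ/SVZ, 3 of them past 2-fold, with a median of -1.98. Pou3f1, also called Oct6 and known from Schwann cells and early neural commitment, gave the largest difference of the members: 1894.74 units in the neurosphere and 31.47 in VZ/SVZ (mm9 chr4:124337692-124337751), a difference of -6.01 ± 0.22 or 64.3-fold lower. It was -4.46 under normexp and -6.02 under quantile normalization. Probes within 20 kb of it did not share that difference: Utp11 was 1.30-fold lower, and the transcripts listed there by position only differed by 0.17 to 0.53.

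Pou3f3 (mm9 chr1:42756099-42756158) read 127.37 and 29.56 units, 4.60-fold lower in VZ/SVZ. Pou3f4 (mm9 chrX:108010778-108010837) read 163.57 and 51.51 units with the homeodomain probe shown above, 3.39-fold lower, and its other probe was dim on both arrays. Pou3f2, which promotes neuronal fate, read 262.87 and 186.62 units, a difference of -0.59 ± 0.20. From largest to smallest difference the order was Pou3f1, Pou3f3, Pou3f4 and Pou3f2, with Pou3f3 at -2.20 ± 0.22 and Pou3f4 at -1.76 ± 0.21 closest to each other. Schwann cell and neural crest markers showed no common direction beside Pou3f1. By 2-fold or more, 2 of 7 measured were higher in VZ/SVZ and 2 lower. Their summed signals were 939.5 units (neurosphere) and 846.4 (VZ/SVZ), of which Egr2 alone made up 834.12 and 123.33. The similar sums thus do not show that the markers were alike on both arrays. The defining markers Gfra3 and Erbb3 were dim on both arrays.

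Class II holds the octamer factors Pou2f1 (Oct1), expressed in most cells, Pou2f2 (Oct2), a lymphocyte factor, and Pou2f3, a factor of tuft and skin cells. None passed 2-fold. Pou2f1 read 257.39 and 333.98 units with its brightest probe, 1.21-fold higher in VZ/SVZ, and its 3 measured probes lay between 0.28 and 0.34. Pou2f2 read 13.84 and 19.93 units (0.43 ± 0.26), and Pou2f3 read 19.25 and 16.35 (-0.33 ± 0.25). Class V also stayed within 2-fold. Pou5f1 (Oct4) read 39.92 and 62.78 units with the homeodomain probe shown above, 1.47-fold higher in VZ/SVZ, and Pou5f2, a testis gene, read 15.34 and 15.45.

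Class IV is known from sensory neurons and retinal ganglion cells. Pou4f1 (Brn3a) read 9.74 and 30.34 units with the probe chosen for it, 2.92-fold higher in VZ/SVZ, but a second probe with similar signal read 16.91 and 15.86, a difference of -0.19 ± 0.27, and another was dim on both arrays. The probe that gave the call is the one that shares 19 bases with probes of Ahnak and Tbx22. It has a run of 16 or more bases in common with 7 probes of other genes, and 42 of its 60 bases are A or G. Pou4f2 read 7.7 units in the neurosphere and was dim in VZ/SVZ, at least 1.39-fold lower. In class VI, Pou6f1 read 171.48 and 87.81 units, 2.08-fold lower in VZ/SVZ; its other measured probes were 2.01-fold lower and 1.40-fold higher. Under normexp the difference of Pou4f1 was 0.32 and that of Pou6f1 -0.71, both short of 2-fold.

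**Figure D3:**
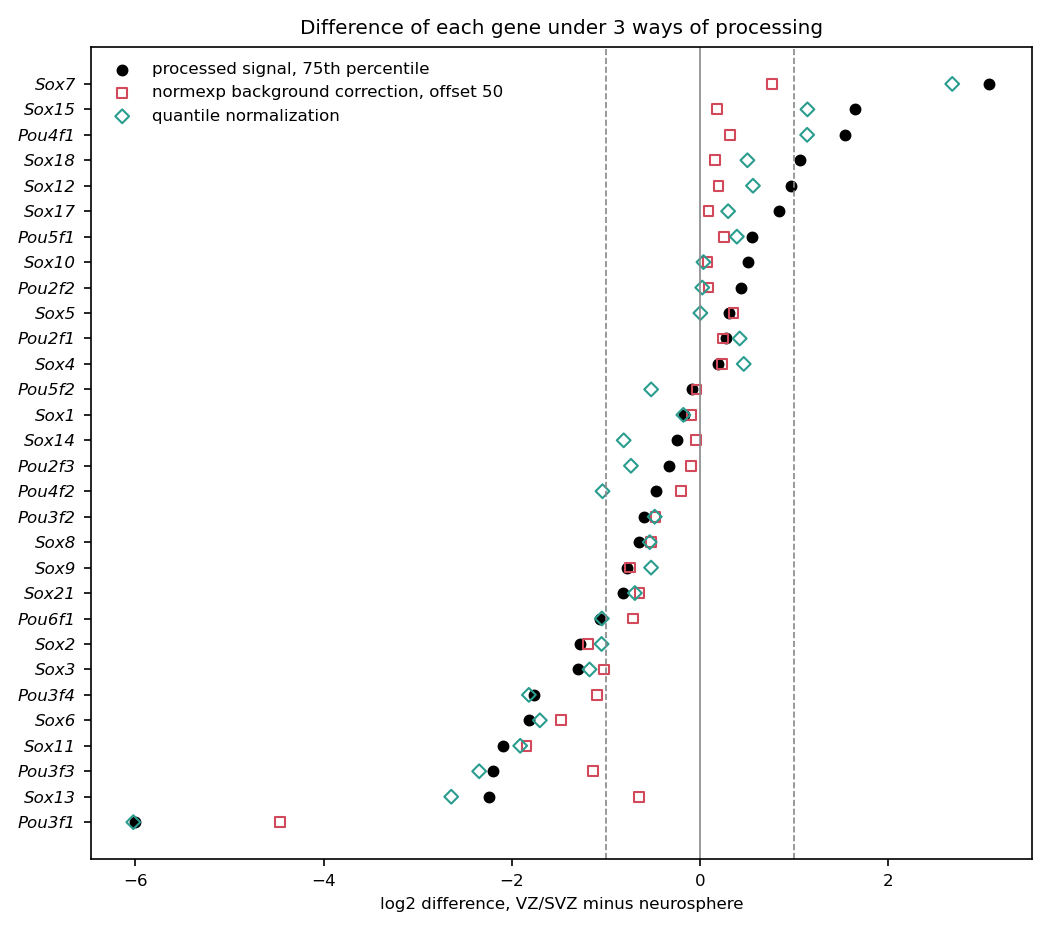
Log2 difference (VZ/SVZ minus neurosphere) of the measured genes named in the text under 3 ways of processing, 1 point per gene and setting, with dashed lines at 2-fold. Normexp squares lie nearer 0 for dim genes such as Sox7 (0.77 against 3.08) and Sox13, whereas Sox2, Sox11 and Pou3f1 stay beyond 2-fold under each of the 3.

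Around Sox2 and Pou3f3, neighbouring transcripts were measured too. Sox2 lies inside an intron of Sox2ot, a long noncoding RNA on the same strand. The Sox2ot probe 25.5 kb from the Sox2 probe (mm9 chr3:34576768-34576827) read 17.74 units in the neurosphere and 479.52 in VZ/SVZ, 25.3-fold higher. That at -13.8 kb (mm9 chr3:34537493-34537552) read 5.78 and 142.25 units, 23.0-fold higher, and that at 28.3 kb read 7.63 and 27.91 units, 3.43-fold higher. All 3 Sox2ot probes were thus higher in VZ/SVZ, where the Sox2 probe was 2.43-fold lower. Under normexp they were 2.90, 1.68 and 0.35. A further forward-strand probe between them, at -6.9 kb and named AK043872, was at least 3.92-fold higher. Of the 8 measured probes within 60 kb, 4 passed 2-fold towards VZ/SVZ and 2 towards the neurosphere, the latter being Sox2 and 1 probe of Gm3143, a gene named after its value was seen.

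Around Pou3f3 the direction was mostly the same as that of the gene. Pantr1 and Pantr2 are noncoding RNAs transcribed next to Pou3f3, on the opposite strand. Pantr1 read 978.99 and 177.6 units with the probe at -51.0 kb, 5.88-fold lower in VZ/SVZ, and 53.45 and 8.71 units with that at -6.2 kb, 6.55-fold lower. Pantr2, at 7.8 kb, read 115.61 and 13.93 units, 8.86-fold lower. Of 9 measured probes within 60 kb, 6 were at least 2-fold lower in VZ/SVZ, the Pou3f3 probe itself among them. An unnamed forward-strand transcript at -6.9 kb was 3.16-fold higher, and the probes at -50.5 kb and 41.6 kb were higher by 0.33 and 0.62, short of 2-fold. Under normexp the Pantr1 differences were -2.16 and -0.76 and that of Pantr2 was -1.43. The other transcripts named after members, Sox5it, Sox5os3 and Sox6os, were dim on both arrays.

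**Figure D4:**
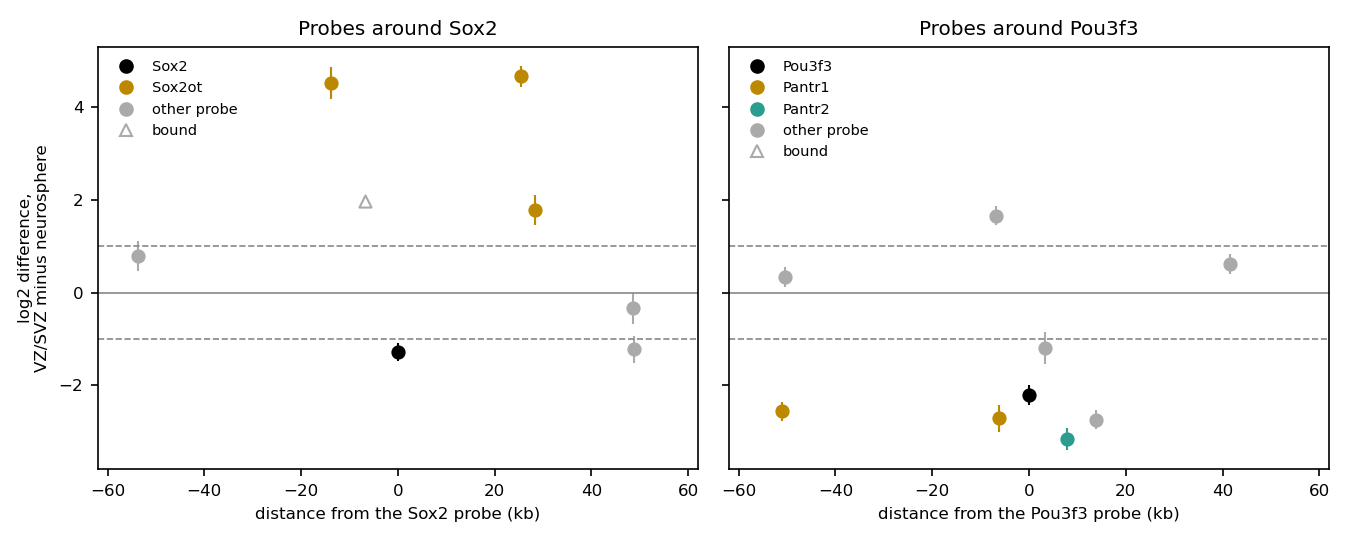
Log2 difference (VZ/SVZ minus neurosphere) of probes within 60 kb of the Sox2 probe and of the Pou3f3 probe, against distance in kb along the mm9 forward strand; bars are the technical error, open triangles are bounds and dashed lines mark 2-fold. Sox2 at -1.28 lies below its Sox2ot neighbours at 4.53, 4.66 and 1.78, and Pou3f3 at -2.20 lies beside Pantr1 and Pantr2 at -2.56, -2.71 and -3.15.

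Among the other named genes within 20 kb of a member's probe, differences were mixed. Beside Sox12, Zcchc3 was 2.95-fold lower in VZ/SVZ while Sox12 was higher. Beside Sox10, Micall1 was 2.86-fold higher and Polr2f 2.25-fold lower, and beside Pou5f1, Tcf19 was at least 4.55-fold lower.

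The promoters of the 2 genes with these neighbours are shown because the transcripts around them differed in opposite directions. Promoter sequences were matched for 24 of the 34 genes in a RefSeq table (GRCm38.p6), giving 33 promoters of 300 bases for them, out of 32851 in all. The 250 bases before the start of Sox2 (GRCm38.p6 chr3:34649745-34649994, forward strand) and of Pou3f3 (GRCm38.p6 chr1:42695518-42695767, forward strand) are given 5′ to 3′, with capitals for a SOX or octamer motif.
Sox2: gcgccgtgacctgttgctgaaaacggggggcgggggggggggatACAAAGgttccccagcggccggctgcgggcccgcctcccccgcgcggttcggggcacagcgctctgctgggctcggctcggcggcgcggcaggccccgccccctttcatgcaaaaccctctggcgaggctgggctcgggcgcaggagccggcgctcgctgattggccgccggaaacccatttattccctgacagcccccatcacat
Pou3f3: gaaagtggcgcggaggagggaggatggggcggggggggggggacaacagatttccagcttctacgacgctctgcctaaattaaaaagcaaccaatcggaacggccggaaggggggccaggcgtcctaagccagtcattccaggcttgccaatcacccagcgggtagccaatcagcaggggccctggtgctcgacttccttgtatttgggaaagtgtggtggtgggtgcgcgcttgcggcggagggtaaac
The motifs searched on both strands were the octamer ATGCAAAT and the SOX words ACAAAG and ACAATG. Sox2 held ACAAAG, at 206 bases before the start, and Pou3f3 held none of them. ACAAAG occurred in 30.3% of the members' promoters and 18.7% of all, and ACAATG in 18.2% and 12.6%. The 10 member promoters with ACAAAG belonged to Pou1f1, Pou2f1, Pou5f2, Sox15, Sox2 and Sox6. The 6 with ACAATG belonged to Pou2f1, Pou5f1, Sox5 and Sox6. Sox6 counted more than once for both words, and for ACAAAG more often than any other member. These are therefore not shares of genes, and the higher share of ACAAAG leans on Sox6. The octamer occurred in 2 of the 33, those of Sox1 and Sox12, or 6.06% against 1.74% of all. The Sox1 octamer and the Sox15 ACAAAG lay after the start, in the last part of the 300 bases. Several promoters belong to 1 gene, 6 of them to Sox6, and a match is a run of letters and not a bound site.

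Genes known as partners or targets of the factors were taken as 10 lists with 148 different genes, of which Prox1 stands in 2 lists. Of the 132 genes measured, in VZ/SVZ 34 (25.8%) were higher by 2-fold or more, against 18.7% of all genes, and 23 (17.4%) lower, against 11.1%. Their median was 0.11, against 0.04. The same shares of all genes, 18.7% higher and 11.1% lower, stand beside the counts of each list below. The SOXF endothelial targets stood highest, with 10 of 14 higher by 2-fold or more, 2 lower and a median of 1.72. Cdh5, Cldn5 and Esam, with others of this list, are also among the endothelial markers above. The counts of the 2 lists are therefore not separate evidence. Cdh5, the cadherin of endothelial junctions, read 1.28 units in the neurosphere and 404.27 in VZ/SVZ, at least 72.9-fold higher, and Cldn5, a tight junction protein, read 7.63 and 165.4, 20.3-fold higher. Esam was at least 48.9-fold and Notch4 11.3-fold higher, although a second Notch4 probe was at -1.01. Prox1, the lymphatic factor, and Plvap were lower, by 3.36-fold and 2.74-fold. Under normexp 5 of the list stayed higher and its median was 0.80.

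Targets and partners of the neural members went both ways. In the SOXB1 and POU3F neural list, 4 of 18 measured genes were at least 2-fold lower in VZ/SVZ, 3 higher and the median was 0.13. Nes, the progenitor filament nestin, read 2293.63 and 698.03 units, 3.51-fold lower. Fabp7, a radial glial lipid carrier, was 2.12-fold lower, Otx2 2.59-fold and Egfr 3.23-fold, the last with a probe at 0.46. The Otx2 probes lay between -1.85 and -0.43. Mycn was dim in the neurosphere and at least 7.21-fold higher in VZ/SVZ, Six3 6.29-fold and Gli2 4.74-fold higher. Of the 10 SOXC targets, 4 were lower and 1 higher: Map2, a dendritic microtubule protein, read 4805.5 and 504.53 units, 10.2-fold lower, and Tubb3, neuronal beta-tubulin, was 3.72-fold higher. Neuroblast and neuron markers were higher in 6 and lower in 1 of 10 measured genes, and Dlx5 and Rbfox3 were dim on both arrays; their part in these list counts was not tested.

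The pluripotency partners and targets of SOX2 and OCT4 gave 6 higher and 0 lower of 18 measured, with a median of 0.35; under normexp 3 were higher and the median was 0.13. The T-box factor Tbx3 was 24.1-fold, Dppa3 at least 12.6-fold and Klf2 4.76-fold higher in VZ/SVZ. Lin28a, an RNA-binding protein, was 6.24-fold higher with its brightest probe, but a second probe was at 0.63 and the normexp difference was 0.66, while Fgf4 and Nr0b1 were dim on both arrays. In the cartilage list of SOXE and SOXD, 3 of 8 measured genes were higher and 1 lower: Col2a1, the main cartilage collagen, read 10.55 and 601.12 units, 53.4-fold higher, Col27a1 was at least 42.4-fold and Col9a2 2.10-fold higher, and Comp was 2.05-fold lower. Acan, Col9a1, Matn1 and Hapln1 were dim on both arrays. Meningeal fibroblast markers, which include collagens, were higher in 6 and lower in 3 of 10 genes by 2-fold or more, with a median of 6.23 on the log2 scale. Col3a1 was at least 526.2-fold higher with its brightest probe, but its other measured probe was at 0.91. Dcn was at least 413.0-fold higher, and Igfbp2 was 3.48-fold lower. Their summed signals were 6839.3 and 13217.3 units, of which Igfbp2 alone made up 6146.02 in the neurosphere, and their part in the cartilage list was not tested.

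For glia, the SOX9 list gave 2 genes higher and 3 lower of 10. Aldh1l1, an astrocyte folate enzyme, read 64.85 and 1591.78 units, 23.0-fold higher, and Apcdd1, a Wnt inhibitor, was 13.3-fold higher. Slc1a3, the glial glutamate transporter, was lower with its brightest probe, at -3.90, but its probes ranged up to 0.74. Nfib, a nuclear factor I protein named here after its value was seen, was 2.81-fold lower, and Ntsr2 at least 8.29-fold lower. The SOX10 list gave 4 higher and 3 lower of 16. Pdgfra, the receptor of oligodendrocyte progenitors and fibroblasts, read 2.24 and 419.15 units, at least 75.5-fold higher, with a second probe at 1.14. Mitf, a pigment cell factor, was 8.76-fold higher with a second probe at -1.74. Egr2, a Schwann cell factor, was 7.22-fold, S100b 3.88-fold and Cnp 2.83-fold lower, the last with a second probe at -0.10. Erbb3 and Ret were dim on both arrays. Sox10 itself differed by 0.51.

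Cofactors of OCT1 and OCT2 gave 1 higher and 3 lower of 13. Pou2af1, the lymphocyte coactivator OBF1, read 6.69 and 19.14 units, 2.68-fold higher. Cd36, Ncoa1 and Snapc2 were 3.36-fold, 2.15-fold and 2.09-fold lower, although a second Ncoa1 probe was at 0.11. Under normexp none of the 13 passed 2-fold. POU4F sensory neuron targets gave 3 higher and 1 lower of 12. The neurofilaments Nefm and Nefl were higher by bounds of 6.28 and 4.32 on the log2 scale. Runx1 was 4.34-fold higher, with probes between 0.76 and 2.14, and Isl2 was at least 21.5-fold lower. Regulators of the proteins and beta-catenin factors gave 1 higher and 3 lower of 14. Tcf7 was 4.17-fold, Parp1 3.80-fold and Tcf7l2 2.23-fold lower, and Wwp2 2.03-fold higher. The Tcf7l2 probes ranged up to 0.11.

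**Figure D5:**
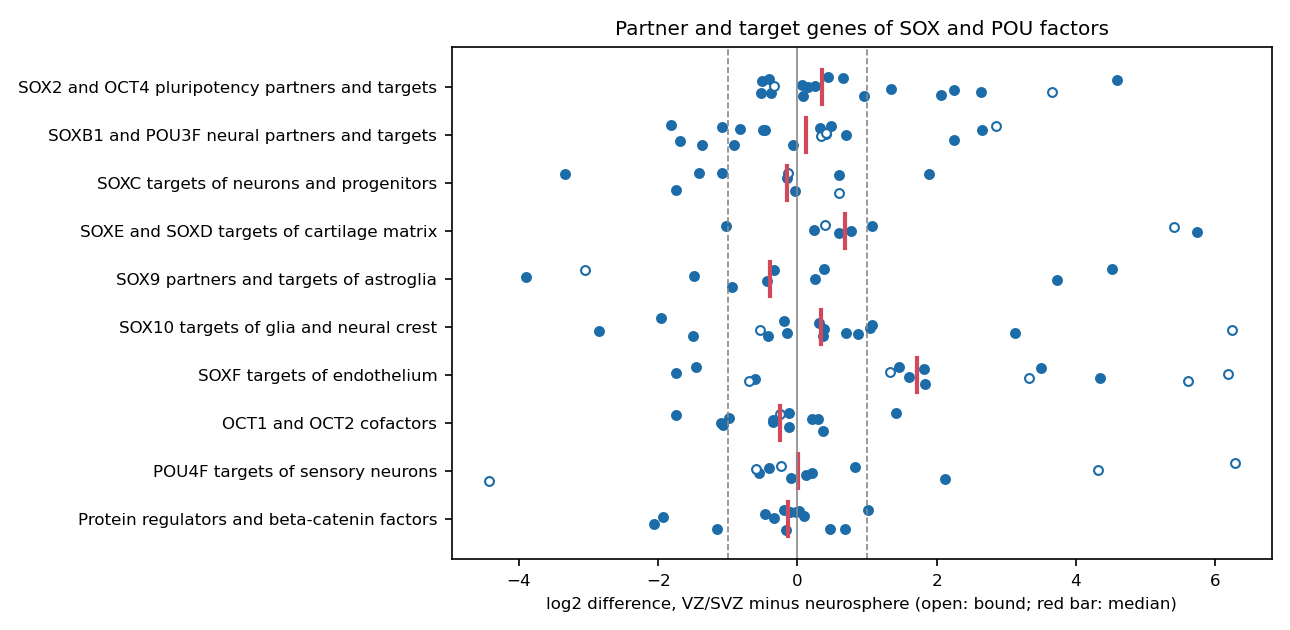
Log2 difference (VZ/SVZ minus neurosphere) of each measured gene of the 10 partner and target lists, 1 point per gene by its brightest probe, open points for bounds, a red bar for the list's median and dashed lines at 2-fold. The SOXF list lies furthest right with a median of 1.72, and the other medians lie between -0.39 and 0.68.

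Markers of further cell types were read as a check on the labels. Neural stem and radial glia markers were all measured, with summed signals of 49689.6 units (neurosphere) and 24179.2 (VZ/SVZ). Fabp7 alone made up 42131.2 and 21259.4 of these units. By gene, 2 of 11 were higher in VZ/SVZ and 3 lower, and the median difference was -0.04. Ependymal cells line the ventricle, yet their markers were lower in VZ/SVZ in 5 of 9 measured genes and higher in 0, from 3406.4 to 790.1 units summed, and Ak7 was dim on both arrays. Of the choroid plexus markers, 4 of 5 measured were higher in VZ/SVZ by 2-fold or more. Aqp1 was 122.5-fold and Enpp2 13.3-fold higher, the latter with another probe at -0.10, and Otx2 was lower. Their summed signals were 139.6 units (neurosphere) and 1145.5 (VZ/SVZ), of which Aqp1 made up 770.78 in VZ/SVZ. The defining markers Ttr, Kl, Kcne2 and Slc4a5 were dim on both arrays. Of the microglial markers, 2 of 6 measured were higher, Trem2 by a bound of 3.80-fold and Laptm5 by one of 4.49-fold, and none was lower by 2-fold. Their summed signals were 1655.9 and 2041.9 units, of which Csf1r alone made up 1567.78 and 1857.2. Cx3cr1, P2ry12, C1qa and Tyrobp were dim on both arrays. Astrocyte markers gave 3 higher and 3 lower of 8, oligodendrocyte progenitor markers 3 and 3 of 7, myelinating oligodendrocyte markers 1 and 1 of 9, and mural markers 7 and 0 of 10. The part of each of these in the SOX and POU differences was not tested.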

How the data were processed

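Total RNA of 1 neurosphere and 1 VZ/SVZ sample was labelled with Cy3 and hybridised to 1-colour arrays, per the labels. The deposited scanner files hold spot intensity from Agilent Feature Extraction 11.5.1.1 (protocol GE1_1105_Oct12, mm9 design), per the file headers; version 9.1 stands in the submitters' processing notes. The processed signal is background-subtracted but unscaled; intensity in the authors' own value table was equal to it at the median probe.

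Of 62976 spots, 3671 control spots and 79 (neurosphere) or 142 (VZ/SVZ) outlier spots were left out, and log2 values were averaged per probe and centred on the 75th percentile. A gene took its brightest probe among those well above background in at least 50% of spots on 1 array or both. A difference between the arrays was counted at 2-fold. Genes were named through RefSeq accessions and symbols (GRCm38.p6). Alternatives were normexp (limma 3.58.1, offset 50), quantile and median scaling, the value table, other probe rules and outlier spots kept. Counting was run on simulated arrays that both took the VZ/SVZ signals, with changes of known size in some genes. That run covers the calling step only and not differences between arrays in scale or background. The members, the lists and the 2-fold rule were chosen with earlier results of these data known. Named genes were all members, up to 4 of each list by size, those opposing a list's median by 2-fold, transcripts named after members and named genes within 20 kb. With 1 array per group no test was made. The values of 1 member and of some list genes, included in the counts, are not reported here.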

Additional observations from a re-analysis of the deposited data

How the results depend on the processing

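With 1 array per group, the spread between samples is unknown, and the technical error covers the scanner alone. No SOX or POU gene past 2-fold turned to the opposite direction under the alternatives run, and Sox5, which is not past 2-fold, changed sign without its repeat probe. The 3 SOX genes at least 2-fold higher in VZ/SVZ fell to 0 under normexp and, by construction, to 0 with probes bright on both arrays, since all 3 were dim in the neurosphere. The 2 POU genes fell to 0 under normexp, to 1 under quantile normalization and to 1 when a gene's probes were summarised by their median. The partner and target genes past 2-fold fell from 57 to 35 under normexp, and those higher in VZ/SVZ from 34 to 19. Normexp kept the call of 24 of the 31 genes, losing 7, among them Sox13, Sox7, Sox18, Sox15, Pou4f1 and Pou6f1. Quantile normalization kept 28, losing 2, among them Sox18, and adding Pou4f2. Scaling to the median, the value table and keeping outlier spots kept all 31. These settings left the values nearly as they were and so had little room to change a call. Median scaling moves every gene by the same amount, with Sox2 at -1.30 against -1.28. The value table held the same signal at the median probe, and keeping outlier spots left Sox2 at -1.28. The cause of the changed counts and calls was not tested. Signal over background limits the dim genes: where a probe was dim on 1 array only a bound is known. No paired analysis was possible because each group has 1 array.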
